A study of Homo sapiens with 6 samples.

Results

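A set of 10 genes for the alpha subunits of heterotrimeric G proteins was followed in RNA immunoprecipitation sequencing (RIP-seq) of Merkel cell carcinoma (MCC) cells. They were *GNAS*, *GNAI1*, *GNAI2*, *GNAI3*, *GNAO1*, *GNAZ*, *GNAQ*, *GNA11*, *GNA12* and *GNA13*, found by gene name among the 60655 genes of the count table, and all 10 were present once. They were picked with their counts in the IGF2BP3 immunoprecipitation (IP) and in the IgG IP already known, so their differences between the groups are a description here and carry no test. The samples were 6 libraries from WaGa, an established MCC line that carries Merkel cell polyomavirus, labelled wild type and untreated. In 3 libraries, RNA came down with an antibody against IGF2BP3, an RNA-binding protein that affects the stability and translation of mRNAs (labelled IMP3 in the table), and in the other 3 with IgG, the negative control. All were made from 1 cell line, so the replicates carry no variation between tumors, and input RNA was not analysed here. A level in these libraries is therefore a share of the RNA recovered by an antibody, averaged over many cells, and fewer cells with a transcript cannot be told apart from fewer copies per cell.

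A G protein alpha subunit binds GDP while it is held with a beta and a gamma subunit. An activated receptor makes it exchange GDP for GTP, upon which it releases its partners and acts on an effector until it hydrolyses the GTP, a step that RGS proteins speed up. Alpha subunits of the Gs family stimulate adenylyl cyclase, those of the Gi/o family mostly inhibit it, those of the Gq/11 family activate phospholipase C beta, and those of the G12/13 family act on exchange factors that regulate the cytoskeleton.

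The families can be seen in the last bases of the coding sequences, which encode the tail that fits into the receptor. For each gene the final 30 coding bases of the canonical transcript, stop codon included, are given on the sense strand with the codon of the fourth residue from the carboxyl end in capitals (GENCODE version 44, GRCh38).
GNAS (chr20:58910800-58910829, plus strand): atgcaccttcgtcagTACgagctgctctaa
GNAI1 (chr7:80217464-80217493, plus strand): aataatctaaaagatTGTggtctcttttaa
GNAI2 (chr3:50257661-50257690, plus strand): aacaacctgaaggacTGCggcctcttctga
GNAI3 (chr1:109592204-109592233, plus strand): aacaacttaaaggaaTGTggactttattga
GNAO1 (chr16:56355024-56355053, plus strand): aacaacctccggggcTGCggcttgtactga
GNAZ (chr22:23123402-23123431, plus strand): aacaatctcaagtacATTggcctttgctga
GNAQ (chr9:77721323-77721352, minus strand): ttgaacctgaaggagTACaatctggtctaa
GNA11 (chr19:3121150-3121179, plus strand): ctcaacctcaaggagTACaacctggtctga
GNA12 (chr7:2731181-2731210, minus strand): gagaacctgaaggacATCatgctgcagtga
GNA13 (chr17:65014257-65014286, minus strand): gacaacctcaagcagCTTatgctacagtga
The capitals are a cysteine codon, TGT or TGC, in *GNAI1*, *GNAI2*, *GNAI3* and *GNAO1*. This cysteine is the residue that pertussis toxin modifies, and *GNAZ*, the Gi/o member known to resist the toxin, has an isoleucine codon in its place. The capitals alone do not sort the families: TAC is in *GNAS* as well as in *GNAQ* and *GNA11*, and *GNA12* also has an isoleucine codon, ATC. Over the aligned coding sequence, the closest pairs were *GNAI1* with *GNAI3*, identical at 80.8% of bases, and *GNAQ* with *GNA11*, identical at 78.5%. The longest exact run shared by any 2 of the 10 canonical transcripts was 47 bases, in *GNA12* and *GNA13*, which is shorter than the 150 bp reads.

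Library totals ran from 9758759 to 14886414 counts on genes. Replicate 1 stood apart in both groups, with a chi-square per degree of freedom of 16.4 to 19.7 against the other replicates of its group, whereas replicates 2 and 3 differed by 2.13 in the IgG IP and 3.06 in the IGF2BP3 IP. The labelled cell type was checked by its markers. All 10 MCC markers examined, among them *ATOH1*, *SOX2*, *INSM1* and *KRT20*, had between 443 and 15857 counts in every library, and 0 of them differed between the groups past the thresholds given below (log2 fold changes from -0.13 to 0.24). Of 8 markers of B cells, other leukocytes and fibroblasts, none had more than 4 counts in a library, and *PTPRC* and *CD3E* were among those at 0 throughout. Their summed counts were 3 to 5 in the IgG IP and 2 to 7 in the IGF2BP3 IP.

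All 10 alpha subunit genes passed the expression filter and were among the 14507 genes fitted, with 93 to 37405 counts per library. In the fit of edgeR, 2 of them, *GNA11* and *GNAO1*, lay past both thresholds (1.5-fold or more, and an adjusted p-value under 0.05 by Benjamini-Hochberg), both higher in the IGF2BP3 IP. This was the case for 1.16% of all tested genes, and for 0 genes in the opposite direction, where 59 genes were at least 1.5-fold lower at an unadjusted p-value under 0.05. In 4 members, *GNA11*, *GNAO1*, *GNAZ* and *GNAI2*, every IGF2BP3 IP library was above every IgG IP library in CPM (counts scaled to a common library size after TMM normalization), an order seen in 12.0% of tested genes. In 0 members was every IGF2BP3 IP library below, the order of 8.69% of tested genes, and in the other 6 the groups overlapped. The median log2 fold change, IGF2BP3 IP over IgG IP, was 0.14 over the 10 members and -0.01 over all tested genes. Since the members were chosen on this contrast, these counts stand beside the shares of all genes without a reading.

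**Figure D1:**
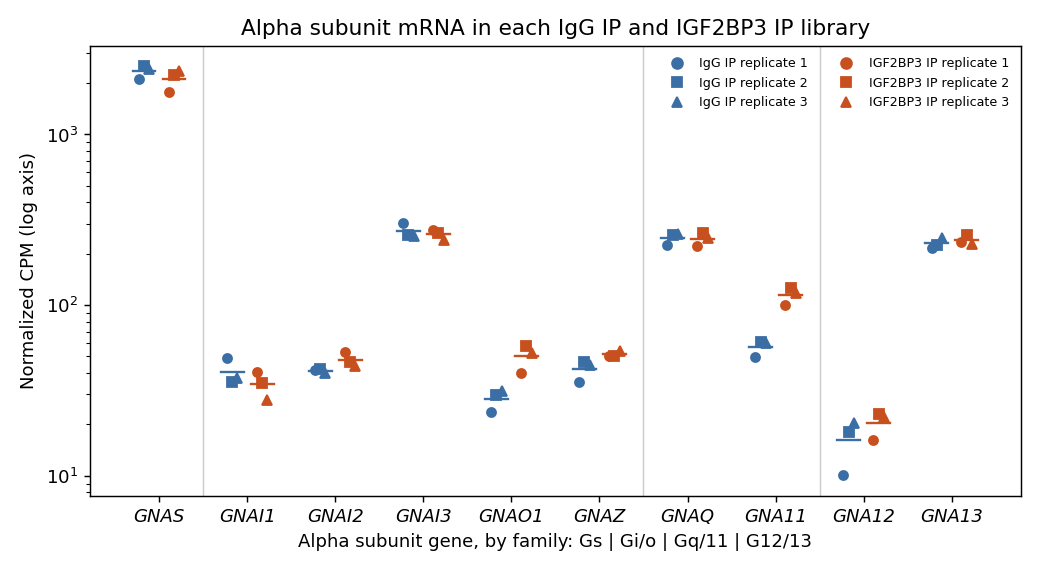
Normalized CPM (log axis) of the 10 alpha subunit genes in each of the 6 libraries, with the genes ordered by family, a symbol for each replicate number and a horizontal bar at the group mean. *GNA11* and *GNAO1* have the widest gaps between groups, and *GNAS* is at 1776 CPM or more in every library.

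*GNAS* (ENSG00000087460.28, chr20:58839718-58911192, plus strand) encodes the Gs alpha subunit and, from other promoters of the same imprinted locus, further products that share its exons, which the gene's counts pool. It had 2102, 2507 and 2410 CPM with IgG, in the order of replicates 1 to 3, and 1776, 2240 and 2342 CPM with the IGF2BP3 antibody. The groups overlapped, and in each the replicate 1 library was the lowest. The log2 fold change was -0.14 (standard error 0.12, 95% interval -0.41 to 0.13), and it was 0.05 on the scale of log2(TPM + 1), where the median of all tested genes was itself 0.11. Within pairs of the same number the log2 CPM of the IGF2BP3 IP minus that of the IgG IP was -0.24, -0.16 and -0.04.

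Among the Gi/o genes, *GNAO1* (ENSG00000087258.16, chr16:56191390-56357444, plus strand) encodes the alpha subunit that is abundant in neurons and neuroendocrine cells. It had 219, 441 and 390 counts with IgG, in the order of replicates 1 to 3, and 476, 767 and 648 counts with the IGF2BP3 antibody. In CPM these were 23.7, 29.6 and 31.5 with IgG and 40.0, 57.9 and 52.7 with the IGF2BP3 antibody. The lowest IGF2BP3 IP library was thus above the highest IgG IP library, and replicate 1 was the lowest of each group. The means were 28.2 ± 4.02 CPM (SD, n = 3) and 50.2 ± 9.24 CPM (SD, n = 3), a fold of 1.77 and a log2 fold change of 0.83 (standard error 0.16, 95% interval 0.46 to 1.19). The differences within pairs of the same number were 0.75, 0.97 and 0.74 on the log2 scale. Its place past the thresholds depended on which libraries were fitted. It was lost when IgG IP replicate 1, 2 or 3 or IGF2BP3 IP replicate 2 or 3 was left out, with log2 fold changes from 0.70 to 0.91 in those fits. In the same fits 134, 19, 7, 0 and 23 of all tested genes were higher past the thresholds, against 169 with all 6 libraries. *GNAO1* was kept without IGF2BP3 IP replicate 1, at 0.96, where 244 genes were past them. With replicates 2 and 3 only, the log2 fold change was 0.86 and past the thresholds.

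The other Gi/o genes differed less. *GNAZ* (ENSG00000128266.9, chr22:23070519-23125032, plus strand), which encodes the subunit Gz with its slow GTP hydrolysis, had 35.7, 46.2 and 44.5 CPM with IgG and 50.6, 50.2 and 54.1 CPM with the IGF2BP3 antibody. *GNAI2* (ENSG00000114353.17, chr3:50226292-50259362, plus strand), which encodes a widely expressed inhibitory subunit, had 41.6, 42.2 and 40.0 CPM against 53.3, 46.2 and 43.8 CPM. In both genes the groups did not overlap, but the gap between the nearest libraries was under 5 CPM. The log2 fold change was 0.29 for *GNAZ* (standard error 0.11, 95% interval 0.03 to 0.55) and 0.21 for *GNAI2* (standard error 0.10, 95% interval -0.02 to 0.44). For *GNAI2* the difference in pair 1, 0.36 on the log2 scale, was larger than in pairs 2 and 3, which both gave 0.13. *GNAI3* (ENSG00000065135.12, chr1:109548615-109600195, plus strand) and *GNAI1* (ENSG00000127955.17, chr7:79768028-80226181, plus strand) encode the closest relatives of the *GNAI2* product. *GNAI3* had 303, 257 and 255 CPM with IgG and 277, 265 and 239 CPM with the IGF2BP3 antibody, and *GNAI1* had 49.1, 35.4 and 37.4 CPM against 40.3, 34.8 and 27.7 CPM. The groups overlapped in both genes. *GNAI1* had the lowest log2 fold change of the members, -0.24 (standard error 0.17, 95% interval -0.62 to 0.14), at percentile 9.80 of the tested genes. *GNAI3* was at -0.06 (standard error 0.10), with a sign that turned with the scale: it was 0.10 with log2(TPM + 1) and 0.07 with a correction for GC content.

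In the Gq/11 family the paralogs stood apart. *GNA11* (ENSG00000088256.9, chr19:3094362-3123999, plus strand) and *GNAQ* (ENSG00000156052.11, chr9:77716097-78031811, minus strand) encode subunits that both activate phospholipase C beta. *GNA11* had 458, 912 and 745 counts with IgG, in the order of replicates 1 to 3, and 1194, 1669 and 1439 counts with the IGF2BP3 antibody. In CPM these were 49.6, 61.1 and 60.1 with IgG and 100.2, 126 and 117 with the IGF2BP3 antibody. Every IGF2BP3 IP library was more than 1.5-fold above every IgG IP library. The means were 57.0 ± 6.35 CPM (SD, n = 3) and 114 ± 13.1 CPM (SD, n = 3), a fold of 2.01. The log2 fold change of 1.00 (standard error 0.12, 95% interval 0.74 to 1.27) was the highest of the members and lay at percentile 99.2 of the tested genes. Pairs of the same number gave nearly equal differences, 1.01, 1.04 and 0.96 on the log2 scale. The gene was no longer past the thresholds when replicate 3 of the IgG IP, or replicate 2 or 3 of the IGF2BP3 IP, was left out, at 1.05, 0.92 and 0.97. Over all tested genes, 7, 0 and 23 were higher past the thresholds in those fits, against 169 with all 6 libraries. *GNA11* stayed past them with replicates 2 and 3 only, at 1.01. *GNAQ* had 225, 257 and 261 CPM with IgG and 222, 265 and 246 CPM with the IGF2BP3 antibody, so that the groups overlapped in full. Its log2 fold change was -0.02 (standard error 0.10, 95% interval -0.23 to 0.20), with either sign among the alternative settings. The log2 fold changes of *GNA11* and *GNAQ* differed by 1.02.

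In the G12/13 family, *GNA13* (ENSG00000120063.10, chr17:65009289-65056740, minus strand) had 217, 226 and 247 CPM with IgG and 234, 258 and 228 CPM with the IGF2BP3 antibody. *GNA12* (ENSG00000146535.14, chr7:2728105-2844308, minus strand) had 10.1, 18.0 and 20.4 CPM against 16.3, 22.9 and 22.2 CPM. The groups overlapped in both genes, whose products couple receptors to the cytoskeleton. The log2 fold change was 0.06 for *GNA13* (standard error 0.09, 95% interval -0.13 to 0.25). It was 0.33 for *GNA12* (standard error 0.24, 95% interval -0.22 to 0.88), the least precise of the members. *GNA12* also had the fewest counts, 93 in IgG IP replicate 1, and its differences within pairs went from 0.12 to 0.68 on the log2 scale.

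**Figure D2:**
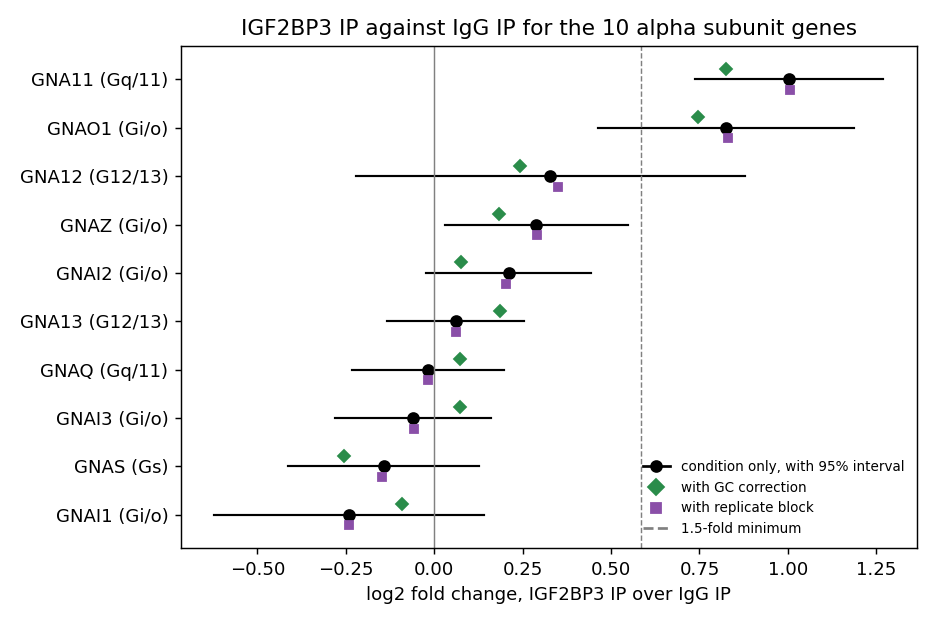
Log2 fold change (IGF2BP3 IP over IgG IP) of the 10 alpha subunit genes. Black points are the edgeR fit with condition only, with 95% intervals; green diamonds are with a correction for GC content, purple squares with replicate as a block, and the dashed line marks the 1.5-fold minimum. *GNA11*, at 1.00, and *GNAO1*, at 0.83, are the points past the dashed line.

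On a scale per transcript length, TPM (a gene's share of all transcripts of a library, scaled to a fixed sum), *GNAS* was far above the other members. Its level was 2003 ± 564 TPM in the IgG IP and 2047 ± 456 TPM in the IGF2BP3 IP (SD, n = 3 each), that is 89.8% ± 1.01 and 87.8% ± 0.825 of the summed TPM of the 10 genes. In the IgG IP its level was 94.3 ± 11.6 times the median of the other 9. The order below it in the IgG IP was *GNA13* at 54.8 ± 13.7 TPM, *GNAQ* at 42.2 ± 11.2, *GNAI3* at 32.9 ± 3.28, *GNAI1* at 24.8 ± 1.19, *GNAI2* at 21.7 ± 4.55, *GNA11* at 16.7 ± 3.22, *GNAZ* at 14.0 ± 3.84, *GNAO1* at 10.5 ± 2.33 and *GNA12* at 5.23 ± 2.39 TPM (SD, n = 3 each). Only at 3 places in this order did the ranges of neighbours over libraries not overlap, namely between *GNAS* and *GNA13*, *GNAI3* and *GNAI1*, and *GNAO1* and *GNA12*. Compared within the same library, each gene was above the next in all 3 IgG IP libraries. The exception was *GNAI1*, above *GNAI2* in 2 of the 3. The place of *GNAI1* depended on the scale. Its mean in the IgG IP was 40.6 CPM on a canonical transcript of 10083 bases, against 271 CPM on 9044 bases for *GNAI3*. *GNAI2* had 41.3 CPM on 2219 bases, so counts per canonical length place *GNAI1* below it. The cause of this difference between TPM and counts was not tested. In the IGF2BP3 IP, *GNA11* was at rank 4 with 38.0 ± 9.76 TPM, in place of rank 7, and *GNAO1* at rank 8 with 20.2 ± 6.35 TPM, in place of rank 9 (SD, n = 3 each). Neither differed from its neighbours in that order beyond the spread over libraries, and within libraries its order with each neighbour held in 2 of the 3.

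Within the families, *GNA11* held 30.7%, 25.7% and 29.4% of the *GNA11* and *GNAQ* sum with IgG and 41.8%, 41.2% and 50.8% with the IGF2BP3 antibody, in the order of replicates 1 to 3. The groups were separate, with means of 28.6% ± 2.60 and 44.6% ± 5.39 (SD, n = 3), and *GNAQ* remained the larger share in 2 of the 3 IGF2BP3 IP libraries. *GNAO1* held 9.26%, 11.4% and 9.55% of the sum of the 5 Gi/o genes with IgG and 12.1%, 17.6% and 18.3% with the IGF2BP3 antibody, again without overlap. Both separations restate in TPM the contrast that was known when the members were chosen, and no test was made of them. The share of *GNA12* in the sum of *GNA12* and *GNA13* overlapped between the groups, with 8.38% ± 2.23 and 10.0% ± 1.94 (SD, n = 3). The 10 genes together took 0.326% ± 0.0327 of all counts in the IgG IP and 0.323% ± 0.0355 in the IGF2BP3 IP (SD, n = 3).

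**Figure D3:**
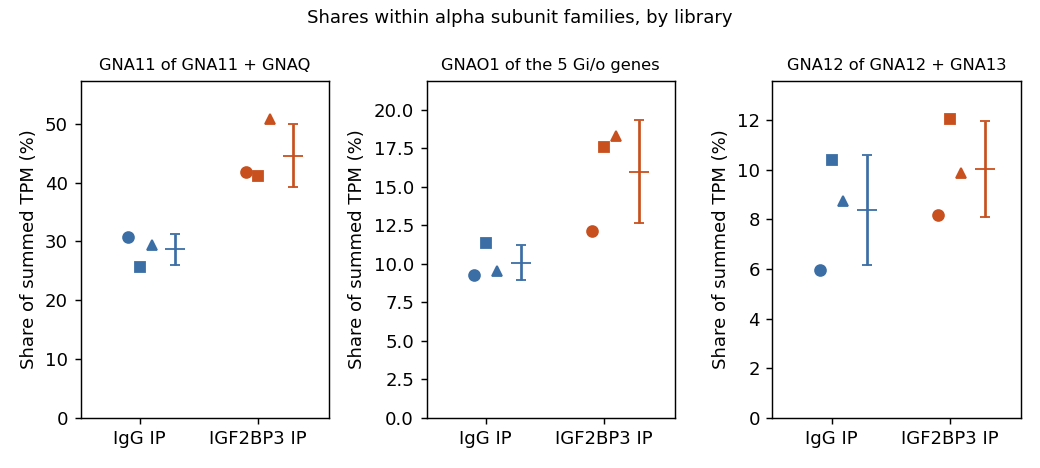
Share (%) of *GNA11* in the Gq/11 sum, of *GNAO1* in the Gi/o sum and of *GNA12* in the G12/13 sum of TPM, by library (circle, square and triangle are replicates 1, 2 and 3), with mean and SD beside the points. The groups are separate for *GNA11* and *GNAO1* and overlap for *GNA12*; the 3 vertical axes differ in range and start at 0.

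The other 6 alpha subunit genes were not detectable at a level that could be compared. *GNAT1*, *GNAT2* and *GNAT3* encode the transducins and gustducin of sensory cells, *GNAL* the olfactory relative of *GNAS*, and *GNA14* and *GNA15* the remaining Gq/11 subunits. None had more than 4 counts in a library, none passed the filter, and *GNAT3* was at 0 in all 6. Genes that overlap a member on either strand could have taken or given reads, as the use of strand in counting is not given in the sources used here. Of 26 such genes, 1 passed the filter (*AL121917.1*, opposite *GNAS*, with 13 to 26 counts), and none held more than 2.28% of the counts of the member it overlaps. For *GNA11* the most counted was *KF456478.1* on the opposite strand, with 1 to 14 counts per library. These counts cannot show reads that the counting left out of both genes, and such a loss was not tested. The pseudogene *GNAQP1* had at most 3 counts, and *GNA13P1*, *GNAI2P1* and *GNAI2P2* had 0.

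The members differed in base composition and length, which the choice did not use. GC content of the canonical transcript was 36.9% in *GNAI1*, 38.1% in *GNAI3*, 38.3% in *GNA13* and 40.8% in *GNAQ*, all under the median of 47.7% over 14479 tested genes. In the others it was 53.6% in *GNAO1*, 54.4% in *GNA12*, 55.7% in *GNAZ*, 56.2% in *GNAS*, 57.8% in *GNAI2* and 62.9% in *GNA11*, the last at percentile 93.0 of the tested genes. The 4 members under the median had log2 fold changes from -0.24 to 0.06, and 5 of the 6 above it had positive values, *GNAS* being the exception. Across genes, Spearman's correlation between GC content and log2 fold change was 0.58 over the 10 members and 0.41 over all tested genes, as a description of points that share the same 6 libraries. With a correction for GC content in each library, the log2 fold change was 0.82 for *GNA11*, still past the thresholds, and 0.75 for *GNAO1*, no longer past them, where 0.649% of all tested genes were past them. It was 0.08 for *GNAI2*, 0.18 for *GNAZ*, 0.24 for *GNA12* and -0.26 for *GNAS*. For the members under the median GC content it was 0.19 for *GNA13*, 0.07 for *GNAQ*, 0.07 for *GNAI3* and -0.09 for *GNAI1*. The contrast between members under and above the median was thus smaller after the correction.

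**Figure D4:**
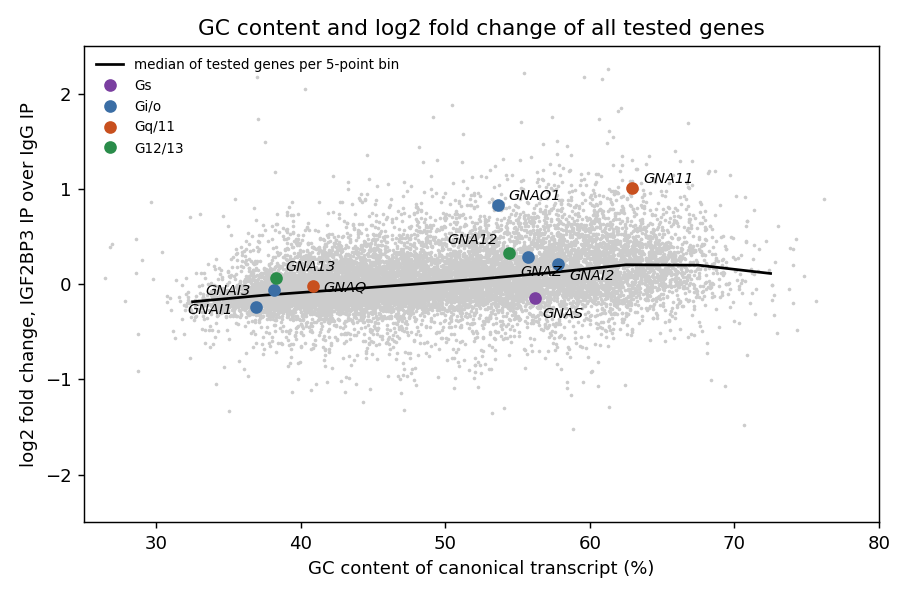
GC content of the canonical transcript (%) against log2 fold change (IGF2BP3 IP over IgG IP). Grey points are all tested genes, the black line is their median in bins of 5 percentage points, and coloured points are the 10 alpha subunit genes by family. *GNA11*, at 62.9% GC, and *GNAO1*, at 53.6%, lie above the line, and *GNAS*, at 56.2%, lies below it.

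The 3′UTR was long in *GNAI1* (8688 bases), *GNAI3* (7873), *GNAQ* (5226) and *GNA13* (4968), shorter in *GNA12* (3076), *GNA11* (2820), *GNAZ* (1601), *GNAO1* (1370) and *GNAI2* (1019), and shortest in *GNAS* (363), against a median of 1406 over the tested genes. The 4 members with the longest 3′UTR were thus the same as the 4 with the lowest GC content. Spearman's correlation between 3′UTR length and log2 fold change was -0.38 over the 10 members and 0.04 over 11843 tested genes, across genes and without a test. The letters GGAC, the core of the sequence at which N6-methyladenosine is often placed and which IGF2BP proteins are known to read, were counted on the sense strand of the canonical transcripts. *GNAS* had 6.47 per kb (12 in all) and *GNA11* 6.44 per kb (27 in all), the highest of the members, and *GNA13* had the lowest, 0.960 per kb. The median of the tested genes was 3.51 per kb, and 98.0% of them had the letters at least once. *GNAO1*, with 2.20 per kb, was below that median. Thus the pair with the highest density had log2 fold changes of -0.14 and 1.00. The letters ACACAC, a CA-rich element bound by IGF2BP proteins, were on the sense strand of 8 of the 10 members, all but *GNAS* and *GNA13*, and of 47.1% of the tested genes. A longer transcript is more likely to hold them, and the members ran from 1854 to 10083 bases, against a median of 3018 over the tested genes. Where present, their density ran from 0.111 per kb in *GNAI3* to 1.89 per kb in *GNAZ*. It was 0.239 per kb in *GNA11* and 0.943 per kb in *GNAO1*. ACACAC and GGAC can share the letters AC. A match is a description of letters and does not show a binding site.

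The genes that act with the alpha subunits were described from lists of 135 genes, of which 65 were tested. The lists were chosen for textbook roles, but with earlier results of these data known. Their p-values are therefore a description of these libraries and no independent support. In the quasi-likelihood test of edgeR with Benjamini-Hochberg adjustment, 2 were higher in the IGF2BP3 IP past the thresholds and 0 were lower (0 lower at least 1.5-fold at an unadjusted p-value under 0.05 as well, and 0 with DESeq2). Over all tested genes, 1.16% were higher past the thresholds. The median log2 fold change was 0.09 over the 65 and -0.01 over all tested genes. Both genes that passed encode adenylyl cyclases, the enzymes that make cAMP and that Gs and Gi/o subunits control. *ADCY1*, a cyclase also stimulated by calcium and calmodulin, had 70.1, 84.8 and 91.1 CPM with IgG and 147, 184 and 164 CPM with the IGF2BP3 antibody. *ADCY9*, a widely expressed cyclase, had 8.13, 12.7 and 8.55 CPM against 21.1, 25.5 and 24.0 CPM. In both, every IGF2BP3 IP library was above every IgG IP library, an order seen in 12.0% of tested genes. Their log2 fold changes were 1.01 (standard error 0.12, adjusted p = 0.00924, edgeR) and 1.25 (standard error 0.19, adjusted p = 0.0195, edgeR). Both stayed past the thresholds with the GC correction, at 0.91 and 1.11. *ADCY1* was lost without IgG IP replicate 2 or 3 or IGF2BP3 IP replicate 2 or 3, and *ADCY9* without IgG IP replicate 3 or IGF2BP3 IP replicate 2 or 3. Over all tested genes, 19 and 7 were higher past the thresholds without IgG IP replicate 2 or 3. Without IGF2BP3 IP replicate 2 or 3 they were 0 and 23, against 169 with all 6 libraries. The median over the 5 tested cyclases was 0.41.

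With replicate as a blocking term in edgeR, and with replicates 2 and 3 only, 4 of the pathway genes were past the thresholds in place of 2. The genes added were *GRK2*, a kinase that phosphorylates active receptors, and *S1PR2*, a receptor for sphingosine 1-phosphate that couples to G12/13 among others. For *GRK2* the log2 fold change was 0.72, with adjusted p-values in edgeR of 0.0827 without the block and 6.27e-05 with it, and for *S1PR2* it was 0.90, with 0.0812 and 0.00161. With the GC correction and the block together, *S1PR2* was past the thresholds at 0.77, whereas *GRK2*, at 0.55, was under the 1.5-fold minimum. DESeq2 also called these 4 pathway genes. Both *GNA11* and *GNAO1* were past the thresholds in each of these fits, as were 3.56% of all tested genes with the block, 3.18% with replicates 2 and 3 only and 2.22% with DESeq2.

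The partners that hold or regulate the alpha subunits had no gene past the thresholds. Of 5 beta subunit genes, 4 were tested, with log2 fold changes from -0.11 to 0.57. *GNB2* had the highest of them, with 50.5, 43.96 and 42.2 CPM with IgG and 74.6, 65.1 and 62.8 CPM with the IGF2BP3 antibody. At 0.57 on the log2 scale (standard error 0.11, adjusted p = 0.0415, edgeR) it was under the 1.5-fold minimum, and it was 0.37 with the GC correction. It was past both thresholds with library totals only, with the length correction and without IgG IP replicate 1. Of 12 gamma subunit genes, 2 were tested, with *GNG4* at 0.21 (adjusted p = 0.387, edgeR). *GNG5* and *GNG10* had at most 8 and 3 counts but 144 to 212 and 64.97 to 87.9 TPM, so counts and TPM differ widely for them. Among 9 tested chaperones and partners the median was 0.11, with *GPSM1*, which binds GDP-bound Gi/o subunits, at 0.55 (adjusted p = 0.218, edgeR). Among 11 tested RGS genes it was -0.02, and *RGS20* had the value farthest from 0, 0.48 (standard error 0.36, adjusted p = 0.627, edgeR). *RGS20* had only 8 to 20 counts per library.

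Effectors other than the cyclases had 0 genes past the thresholds in each list. The median log2 fold change was -0.02 over 6 tested cAMP sensors, where *PRKAR1A*, a regulatory subunit of protein kinase A, was farthest from 0 at -0.17 (adjusted p = 0.367, edgeR). It was 0.06 over 5 tested Gq effectors, with *TRIO*, a guanine nucleotide exchange factor, at 0.32 (adjusted p = 0.552, edgeR), and 0.17 over 4 tested G12/13 effectors, with *AKAP13*, another exchange factor, at 0.36 (adjusted p = 0.429, edgeR). The 6 tested receptor kinases and arrestins had a median of 0.18. The 13 tested receptors, of 39 listed, had a median of 0.40 and the widest range, -0.54 to 0.90. Several had few counts. *S1PR5*, at the lower end, had 9 to 33 counts per library (adjusted p = 0.581, edgeR), and *S1PR2*, at the upper end, had 35 to 105. *CHRM4* had 1 to 22.

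**Figure D5:**
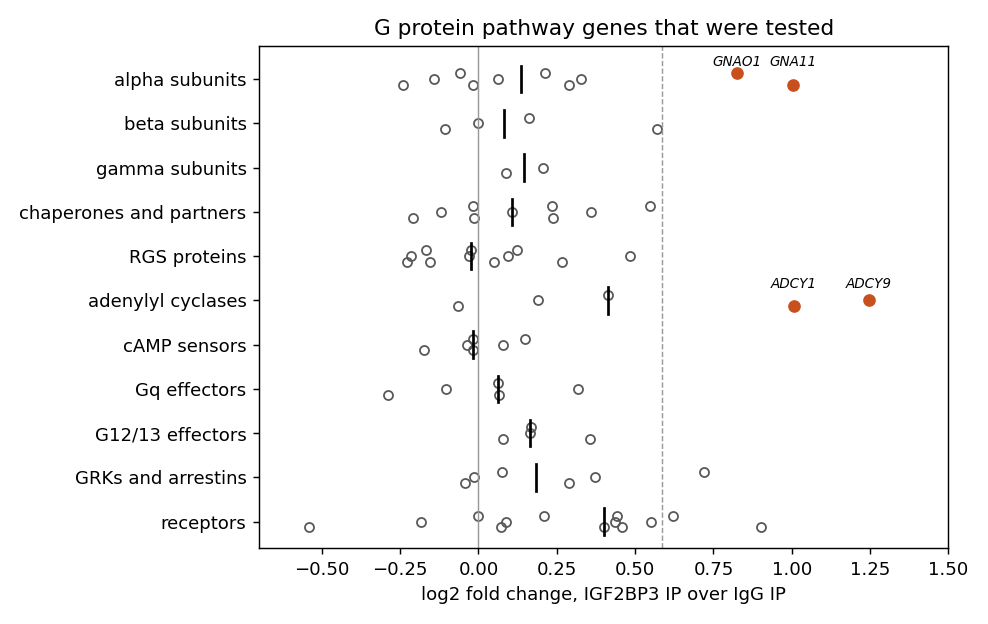
Log2 fold change (IGF2BP3 IP over IgG IP) of every tested gene of the alpha subunits and of the pathway lists, a point per gene, with vertical bars at the list medians and a dashed line at the 1.5-fold minimum. Filled points are the genes past both thresholds, *GNA11*, *GNAO1*, *ADCY1* and *ADCY9*.

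The tested genes whose log2 CPM over the 6 libraries were most like those of *GNA11* were *VPS39* (Pearson's r = 0.997), *DAG1* (0.997), *ICMT* (0.997), *ADCY1* (0.996) and *CHD7* (0.996). Among those most like *GNAI1* were *SPTLC1* (0.998), *FUT8-AS1* (0.994), *ZBTB41* (0.992) and *LYPLA1* (0.991). These are the highest correlations among all tested genes, over only 6 libraries that share depth and replicate structure, and no test was made of them.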

How the data were processed

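RIP-seq libraries of WaGa cells, 3 from the IgG IP and 3 from the IGF2BP3 IP, were compared, with groups and replicate numbers from the sample labels. Per the labels and the submitters' processing notes, paired-end reads of 150 bp were aligned to GRCh38 with STAR 2.7.9a and quantified with RSEM. The authors deposited whole-number counts per gene without normalization, which were used for all tests. They also deposited TPM and FPKM values, normalized for length and depth by the authors, which were used for levels between genes. The counting program is not given in the sources used here. The replicates are called independent without a word on separate cultures, so p-values measure the spread between these libraries.

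Counts were filtered (filterByExpr), normalized with TMM and fitted in edgeR 4.0.16 (R 4.3.3; quasi-likelihood test), condition being the only term, with Benjamini-Hochberg adjustment over 14507 genes. Standard errors were taken from the fold change and the F statistic, and differences within pairs use log2 CPM with a prior count of 2. Libraries with the same number deviated together from their group means (correlations across genes of 0.57, 0.28 and 0.23), although libraries 2 and 3 with unlike numbers correlated as much (0.27 and 0.28). The numbers were used as pairs for the differences within pairs and in the blocked fits, and not in the main fit. The labels do not say that a number marks a shared lysate, and the blocked fit was run as an alternative.

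Alternatives were DESeq2 1.42.0, RLE factors or library totals only, 2 other filters (1 count in total, or 10 in every library), voom on the counts and limma-trend on TPM with a pseudocount of 1 or 0.1 (limma 3.58.1), a loess correction of each library (span 0.5) for GC content or for effective length, each library left out, and, added after the data were seen, replicates 2 and 3 only. Sequence features came from GENCODE version 44, which held 60437 of the listed gene identifiers. The members and lists were chosen with earlier results of these data known. Genes named from the pathway lists are those past the thresholds and the one farthest from 0 in each list, and *GNG5*, *GNG10* and overlapping genes were named after their values were seen. Most-alike genes are the 5 highest Pearson correlations with the members of highest and lowest log2 fold change, and genes that these rules cover but the text does not name are not reported here.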

Additional observations from a re-analysis of the deposited data

How the results depend on the processing

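The log2 fold changes of the 10 members were recomputed under 19 other settings. Of the 190 values, 169 moved by less than the spread between replicates, 21 moved further, and neither *GNA11* (0.82 to 1.17) nor *GNAO1* (0.70 to 0.96) turned sign. Signs of *GNAS*, *GNAI3* and *GNAQ*, which were not past the thresholds, turned in some settings. With TPM and limma-trend the median of all genes shifted to 0.11 and 0.13. The number of members higher past the thresholds was 2, and it was 1 (*GNA11*) with limma-voom and with the GC correction, 0 with limma-trend at either pseudocount, and 0 to 2 with one library left out. No member was lower past the thresholds in any setting. Over all tested genes, 169 were higher, against 281 with DESeq2, 359 with no filter beyond 1 count, 517 with the replicate block, 94 with the GC correction, 324 with the GC correction and the replicate block, 466 with replicates 2 and 3 only, and 0 with limma-trend at either pseudocount, where 476 and 617 passed both limits on the unadjusted p-value. One library left out gave 0 to 244 genes. IGF2BP3 IP replicate 2 took the number to 0 when absent (473 before adjustment), IgG IP replicate 3 took it to 7, IgG IP replicate 2 to 19, and IGF2BP3 IP replicate 3 to 23. In the opposite direction 0 genes passed, against 1 with no filter, 15 with the replicate block, 25 with the GC correction and the block, and 8 with replicates 2 and 3 only. Of the pathway genes, 2 were higher, against 4 with DESeq2, with no filter, with the replicate block and with replicates 2 and 3 only, 0 with limma-trend at either pseudocount (7 and 6 on the unadjusted p-value), 3 with library totals only and with the length correction (*GNB2* added) and with the GC correction and the block (*S1PR2* added), and 0 to 3 with one library left out. The replicate block, which pairs libraries by number, changed no call past both thresholds reported here except for *GRK2* and *S1PR2*. It gave *GNA11* 1.01 and *GNAO1* 0.83. Adjusted p-values in edgeR with the block were lower for *GNB2* (2.8e-06), *GNG4* (0.0136), *GPSM1* (0.0278), *PRKAR1A* (0.0281) and *AKAP13* (0.0462). Those genes were under 0.05 with the block and only the 1.5-fold minimum kept them from a call. The values were 0.0624 for *TRIO*, 0.462 for *RGS20* and 0.386 for *S1PR5*. The ratio of *GNAS* to the other members was 94.3 with FPKM and 93.0 with counts per kb. The cause of these changes was not tested. Each group had 3 libraries, and the least counted member had 93 counts in 1 of them.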
